A study of Mus musculus with 6 samples.

Results

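Genes of motile cilia and of their core, the axoneme, were followed in neurospheres, balls of cultured cells that grow from neural stem cells and progenitors. The set holds 40 genes picked for their place in ependymal cilia, and its members were found by gene symbol, or a synonym of it, among the probes of an Illumina MouseWG-6 bead array. A named probe was found for 37 of the 40. A member was tested where a probe had a detection p under 0.05, and so stood above background, on at least 3 of the 6 arrays, which held for 23 of them among 12754 features tested in all. The spheres came from the subventricular zone, a germinal zone beside the ventricles, of 18-month-old mice. They were cultured with the growth factors EGF and FGF and harvested after 14 days in vitro. The mice were either wt or carried a transgene for Wip1 (Wip1-Tg), the phosphatase encoded by Ppm1d, and the spheres were either primary or secondary. The wt group had 1 primary and 2 secondary arrays, and the Wip1-Tg group had 2 primary arrays and 1 secondary array. The sources used here name neither the construct of the transgene nor its promoter, and do not say whether animals were pooled or whether replicate arrays came from separate animals or cultures.

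Ependymal cells line the brain ventricles and beat tufts of motile cilia that move the cerebrospinal fluid. In a motile cilium, dynein arms slide microtubule doublets past each other, radial spokes and a central pair set the beat, and intraflagellar transport carries the parts along the shaft. The forkhead factor Foxj1 and the RFX factors switch on much of this gene set, and several of the RFX factors and all of the transport genes also serve the single primary cilium that many other cells carry. Neural stem cells of the subventricular zone have such a primary cilium, whereas bundles of motile cilia belong to ependymal cells.

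RFX factors bind paired half-sites known as X boxes, and the promoters of the members were searched for them because the 2 regulator families stand at the head of the set. RefSeq promoters of assembly GRCm38.p6, from 250 bases before to 50 bases after a start site, were matched by symbol for 34 of the 40 members. An RFX half-site, GTTGCC on either strand, lay in the promoters of 17 of these 34 genes (50%), against 14.1% of the 27025 genes with a promoter in the same table. Counted by window, it was in 18 of 44 member windows, against 12.5% of 32851 windows. The paired RFX site, GTNNCC and its mirror GGNNAC with 2 free bases between them, reads the same on both strands and can overlap a half-site. It was in 5 of the 34 (14.7%), against 2.16% of all genes. The forkhead site TGTTTAC, searched on both strands, was in 2 of the 34 (5.88%), against 4.05%. A match describes the letters of the window and is not a measured binding site.

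The 150 bases before the start are shown for some of the members described below, picked because a motif lies in this stretch. They lie at chr11:72361883-72362032 on the minus strand for Tekt1, chr9:72438379-72438528 on the plus strand for Mns1, chr3:67373947-67374096 on the plus strand for Mlf1, chr1:171122895-171123044 on the plus strand for Cfap126, chr17:56831009-56831158 on the minus strand for Rfx2 and chr8:116504865-116505014 on the plus strand for Dynlrb2. Each runs 5′ to 3′ toward the start site, and capitals mark the motif. Tekt1 carries 2 half-sites in opposite orientation, 35 and 15 bases before the start. Mlf1 carries a forkhead site 116 bases and an RFX half-site 105 bases before the start. In this stretch Cfap126 carries the paired site, and the other 3 carry 1 half-site each. The full promoter of Mns1 holds another half-site, and that of Rfx2 also holds a paired site. The other promoter windows of Tekt1 and Cfap126 held none of these motifs. Nor did the promoters of Dnaic1 and Rfx4, which were higher in secondary spheres. Of the tested members not called for passage, Rfx1, Rfx3, Ift88, Ift172, Iqcg, Spag6, Dynlrb2 and Tekt1 had a half-site in their promoters, and Dnah2, Dnah11 and Dnali1 had none. No promoter was matched for Foxj1, Tppp3, Rsph1 and Lrrcc1, which were called. Whether the motifs go with the passage differences was not tested.
Tekt1: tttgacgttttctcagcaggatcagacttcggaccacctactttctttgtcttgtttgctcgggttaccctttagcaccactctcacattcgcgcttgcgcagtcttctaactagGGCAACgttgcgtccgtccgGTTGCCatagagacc
Mns1: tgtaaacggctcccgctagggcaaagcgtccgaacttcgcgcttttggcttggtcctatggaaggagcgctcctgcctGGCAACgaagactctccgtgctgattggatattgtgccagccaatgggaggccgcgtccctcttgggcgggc
Mlf1: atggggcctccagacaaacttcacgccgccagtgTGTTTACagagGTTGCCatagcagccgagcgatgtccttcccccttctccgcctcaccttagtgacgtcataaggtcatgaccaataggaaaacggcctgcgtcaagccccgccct
Cfap126: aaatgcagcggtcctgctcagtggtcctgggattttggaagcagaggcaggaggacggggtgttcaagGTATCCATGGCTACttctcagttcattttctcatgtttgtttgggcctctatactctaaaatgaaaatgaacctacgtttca
Rfx2: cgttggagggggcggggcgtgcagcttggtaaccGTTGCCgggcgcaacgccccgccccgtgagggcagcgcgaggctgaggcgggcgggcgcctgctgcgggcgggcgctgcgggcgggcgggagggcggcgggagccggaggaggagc
Dynlrb2: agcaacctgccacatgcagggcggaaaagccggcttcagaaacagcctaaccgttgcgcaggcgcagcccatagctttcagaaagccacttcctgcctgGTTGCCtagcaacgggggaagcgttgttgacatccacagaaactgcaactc

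Median raw intensity was 150.88 to 168.44 per array, and 17623 to 18699 probes per array stood above background. The lowest normalised value that counted as above background was 5.25 to 5.35 on the log2 scale. Ppm1d differed between genotypes by 0.26 (Wip1-Tg minus wt, log2, SE 0.125, limma adjusted p = 0.539). The labels call the mice gender matched, but Xist, the RNA of the inactive X chromosome, stood above background on Wip1-Tg primary 2 and the 3 secondary arrays, and on neither wt primary 1 nor Wip1-Tg primary 1. A Kdm5d transcript, which comes from the Y chromosome, was instead seen on those last 2 arrays only, with 1 of its 2 probes. Uty, also Y-linked, did not follow this split, since 1 of its 4 probes was dimly above background (5.33 to 5.95) on the primary arrays and wt secondary 1. The mixture of arrays therefore moved with passage, and its part in the passage differences was not tested. A refit on the 4 arrays with Xist keeps 1 primary array, Wip1-Tg primary 2, and so cannot test it.

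Many motile-cilium genes were not above background in these spheres. In all, 8 members with a named probe were never above background on any array. They were the axonemal dynein heavy chains Dnah5, Dnah6 and Dnah9, the central pair proteins Hydin and Spag17, the adenylate kinase Ak7, the axonemal ruler Ccdc40 and the sperm protein Spa17. A further 6 reached the background threshold on 1 or 2 arrays only, and in each case these were primary arrays. Enkur, a microtubule inner protein, was at 6.03 on wt primary 1 and 5.94 on Wip1-Tg primary 1, where it was above background, and at 5.10 on Wip1-Tg primary 2 and 4.60 to 5.23 on the secondary arrays. Rsph4a, a radial spoke head protein, was above background on the same 2 arrays, at 5.93 and 5.36. Ccdc39, the partner of Ccdc40, and Pifo, a ciliary protein, were also above background on those 2 arrays alone, at 5.44 and 5.33 and at 5.52 and 5.44. Spag16, of the central pair, was so on wt primary 1 alone (5.49), and the heavy chain Dnah1 on Wip1-Tg primary 1 alone (5.36). The 2 arrays without Xist were the ones that carried these dim signals. The other 3 members, Tekt2, Tekt4 and Meig1, had no named probe.

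**Figure D1:**
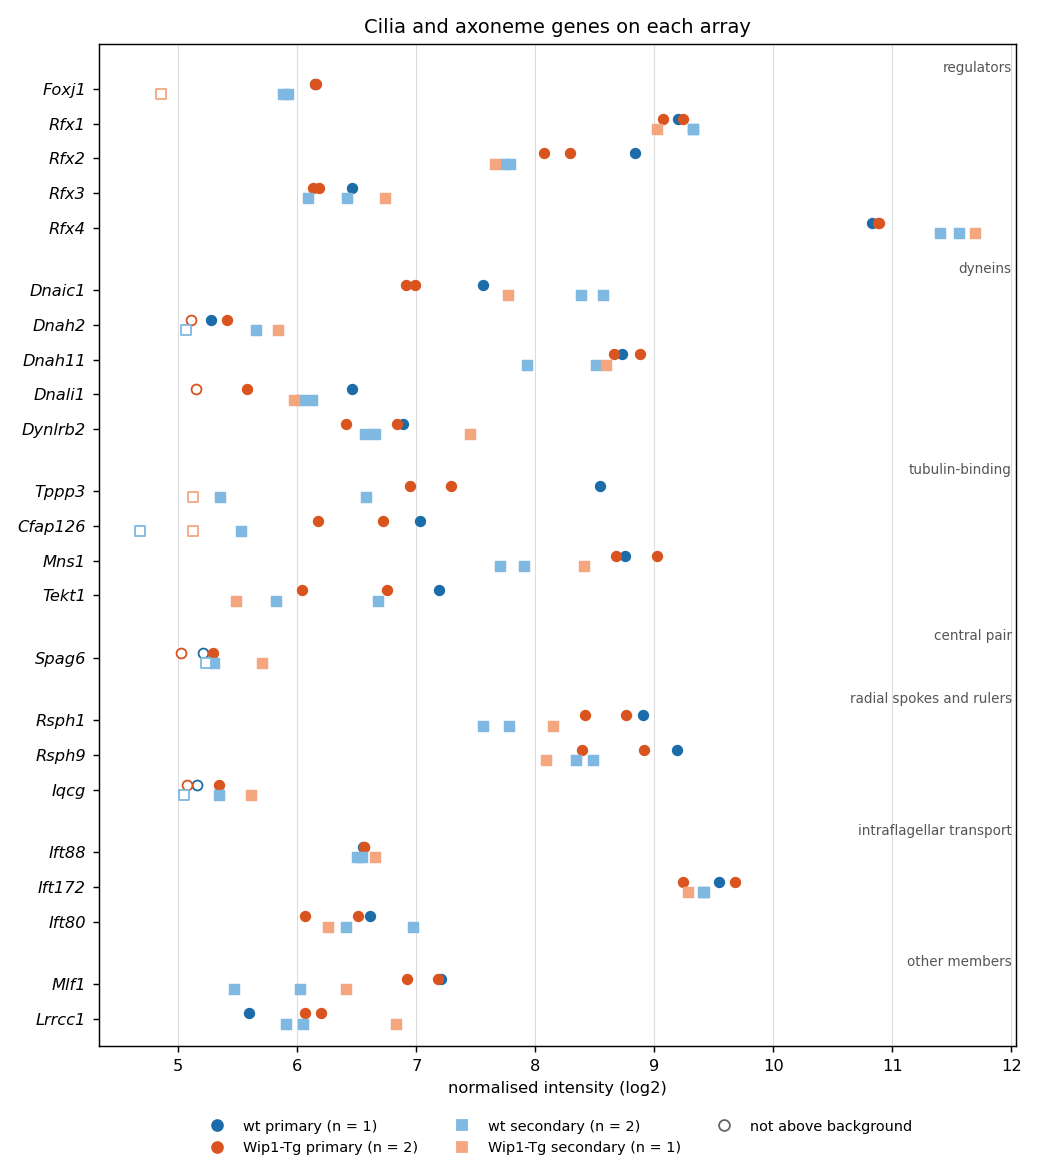
Normalised log2 intensity of each tested member on each of the 6 arrays, with circles for primary and squares for secondary spheres, blue for wt and orange for Wip1-Tg, and open symbols for arrays on which the probe was not above background. Foxj1, Rfx2, Dnah11, Tppp3, Cfap126, Mns1, Rsph1 and Mlf1 have all their primary arrays to the right of all their secondary arrays. Rfx4 and Dnaic1 have the reverse order. Levels of different genes come from different probes and are not to be set against each other.

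Between passages, 11 of the 23 tested members passed the limma threshold of an adjusted p under 0.05, against 28.1% of all features. Of these, 8 were lower in secondary spheres, against 13.8% of all features, and 3 were higher, against 14.3%. The median passage difference (secondary minus primary, log2) was -0.003 over the tested members and 0.04 over all features. The 8 lower ones were Foxj1, Rfx2, Tppp3, Cfap126, Mns1, Rsph1, Rsph9 and Mlf1, and the 3 higher ones were Rfx4, Dnaic1 and Lrrcc1. The values of primary and secondary arrays did not overlap for 10 of the 23 members, close to the 46.8% of all features. Leaving out wt primary 1 left 1 lower call, Foxj1, and 3 higher calls. Without that array passage is compared within Wip1-Tg alone. The 4 arrays with Xist also hold no wt primary array. The passage difference there sets Wip1-Tg secondary 1 against Wip1-Tg primary 2, with the spread taken from the wt secondary pair. A refit of 1 array against 1 cannot show the part of the Xist split, and only sizes are given from it. Rfx4 (0.79), Dnaic1 (0.86), Lrrcc1 (0.78) and Mns1 (-0.61) stayed close to their values on 6 arrays or went above them. Rfx2 (-0.41), Rsph1 (-0.27) and Rsph9 (-0.30) shrank to a much smaller size, and Tppp3 (-1.84), Cfap126 (-1.05) and Mlf1 (-0.77) lay in between. Foxj1 widened, from 6.16 on Wip1-Tg primary 2 to 4.85 on Wip1-Tg secondary 1, where it was not above background.

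The size of several differences also depended on how the intensities were processed. In the authors' deposited normalized values, Tppp3 gave -1.04, Cfap126 -0.57, Mlf1 -0.43 and Dnaic1 0.53, all 4 smaller and still called by limma. Foxj1 (-0.25, limma adjusted p = 0.075) and Lrrcc1 (0.2, limma adjusted p = 0.0858) lost their calls in those values. With an offset of 50, Foxj1 gave -0.46 and Cfap126 -1.04, both still called, and median scaling gave 0.52 for Dnaic1, also still called. In these bulk spheres, fewer cells of a type and less RNA per cell cannot be told apart.

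Among the regulators, Foxj1 and Rfx2 fell with passage and Rfx4 rose. Foxj1, the forkhead factor of motile cilia, was at 6.15 on wt primary 1, 6.15 and 6.16 on the Wip1-Tg primary arrays, 5.92 and 5.88 on the wt secondary arrays and 4.85 on Wip1-Tg secondary 1, where it was not above background. The primary arrays agreed closely, and the fall lay mostly in that last array. The difference was -0.78 (SE 0.233, 95% interval -1.34 to -0.22, limma adjusted p = 0.0486). Without Wip1-Tg secondary 1 it was -0.25 (limma adjusted p = 0.296), without wt primary 1 it was -1.31 (adjusted p = 0.0117), and the call ended without each of the other 4 arrays as well (adjusted p up to 0.108). It also ended with no filter on dim probes (adjusted p = 0.0865) and with genotype left out of the model (-0.61, adjusted p = 0.141).

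Rfx2, an RFX factor used in ciliated cells, was at 8.84 on wt primary 1, 8.29 and 8.07 on Wip1-Tg primary, 7.79 and 7.74 on wt secondary and 7.66 on Wip1-Tg secondary. Every secondary array lay below every primary array. The difference was -0.80 (SE 0.162, limma adjusted p = 0.0148), a 1.74-fold fall. Without wt primary 1 it was -0.52 (limma adjusted p = 0.099).

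Rfx4, an RFX factor of the developing brain and of astrocytes, moved the other way. Its values were 10.83 on wt primary 1, 10.88 and 10.89 on Wip1-Tg primary, 11.56 and 11.40 on wt secondary and 11.69 on Wip1-Tg secondary, so that the passages did not overlap. Rfx4 was 1.65-fold higher in secondary spheres (0.73, SE 0.118, limma adjusted p = 0.00699). It missed the threshold without Wip1-Tg secondary 1 (0.65, limma adjusted p = 0.0606) and after scaling to equal medians (0.42, adjusted p = 0.109). Its 2 other kept probes gave 0.92 and 0.39. Rfx1 and Rfx3 did not pass, at -0.003 (95% interval -0.30 to 0.30) and 0.19 (95% interval -0.30 to 0.68). Rfx1 is expressed in many tissues, and Rfx3 acts in both primary and motile cilia.

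Of the 9 listed dyneins 5 were tested, and 1 changed with passage. Dnaic1, an intermediate chain of the outer dynein arm, was at 7.56 on wt primary 1, 6.99 and 6.91 on Wip1-Tg primary, 8.38 and 8.57 on wt secondary and 7.77 on Wip1-Tg secondary. Every secondary array was above every primary array, and in each passage Wip1-Tg lay below wt. Dnaic1 was 1.83-fold higher in secondary spheres (0.87, SE 0.12, limma adjusted p = 0.00394), and its second probe gave 0.75. The call held with each of the 6 arrays left out (0.82 to 0.92). On the 4 arrays with Xist the difference was 0.86, from 1 Wip1-Tg array of each passage. The outer arm heavy chains Dnah5 and Dnah9, in contrast, gave no signal above background.

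The other 4 tested dyneins did not pass for passage. Dnah11, another outer arm heavy chain, lay at 8.66 to 8.88 in primary and 7.93 to 8.59 in secondary spheres (-0.34, 95% interval -0.81 to 0.12), from 1 of its 2 probes. Dnah2, an inner arm heavy chain, was dim, above background on 4 arrays, at 5.06 to 5.84 (0.33, 95% interval -0.18 to 0.85). Dnali1, an inner arm light intermediate chain, gave 0.11 (95% interval -0.48 to 0.70), and Dynlrb2, a roadblock light chain, gave 0.27 (95% interval -0.36 to 0.90). The intervals of Dnali1 and Dynlrb2 each leave room for a change in either direction.

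The 4 tested tubulin-binding genes all had negative passage differences, with a median of -1.27, and 3 passed. Tppp3, a tubulin polymerisation-promoting protein, was at 8.54 on wt primary 1, 7.29 and 6.95 on Wip1-Tg primary, 5.35 and 6.58 on wt secondary and 5.12 on Wip1-Tg secondary, where it was not above background. Tppp3 had the widest passage difference of the tested members, -2.29 (SE 0.342, 95% interval -3.11 to -1.47, limma adjusted p = 0.00531), or 4.89-fold as fitted with that dim array included. Its wt primary array stood well above both Wip1-Tg primary arrays, and its 2 wt secondary arrays differed by more than the Wip1-Tg primary pair. Without wt primary 1 the difference was -2.01 and missed the threshold (limma adjusted p = 0.0599).

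Cfap126, also called Flattop, is a microtubule inner protein that helps place basal bodies. Its values were 7.03 on wt primary 1, 6.72 and 6.17 on Wip1-Tg primary, 4.68 and 5.53 on wt secondary and 5.12 on Wip1-Tg secondary. Of the secondary arrays, wt secondary 2 alone was above background for it, and the other two values lie at background. The difference was -1.62 (SE 0.288, limma adjusted p = 0.00938), or 3.08-fold as fitted with those dim arrays included, and -1.33 without wt primary 1 (adjusted p = 0.0882).

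Mns1, another microtubule inner protein, was at 8.75 on wt primary 1, 8.68 and 9.02 on Wip1-Tg primary, 7.90 and 7.70 on wt secondary and 8.41 on Wip1-Tg secondary. Its passages did not overlap, and within secondary spheres the Wip1-Tg array was the highest. The difference was -0.69 (SE 0.174, limma adjusted p = 0.0289). The call held without Wip1-Tg primary 1 and ended without each of the other 5 arrays, with differences of -0.94 to -0.44 and adjusted p up to 0.204.

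Tekt1, a tektin of the doublet microtubules, just missed the threshold. It was at 7.19 on wt primary 1, 6.75 and 6.04 on Wip1-Tg primary, 5.82 and 6.68 on wt secondary and 5.48 on Wip1-Tg secondary, and the passages overlapped. The difference was -0.92 (SE 0.287, limma adjusted p = 0.0543), with -0.86 from its second probe. It passed without Wip1-Tg primary 2 (-1.08, adjusted p = 0.0451), without wt secondary 2 (-1.11, adjusted p = 0.029) and after median scaling (-1.19, adjusted p = 0.00402). It also passed with an offset of 50, with either stricter filter on dim probes, with the mean of its probes, and with trend and robust variances (adjusted p 0.0248 to 0.0498).

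Of the radial spoke genes, both spoke head proteins that were tested fell. Rsph1 was at 8.90 on wt primary 1, 8.76 and 8.42 on Wip1-Tg primary, 7.78 and 7.56 on wt secondary and 8.15 on Wip1-Tg secondary. The passages did not overlap, and the difference was -0.84 (SE 0.211, limma adjusted p = 0.0293). It kept its call without Wip1-Tg primary 2 or Wip1-Tg secondary 1, and lost it without each of the other 4 arrays, down to -0.44 without wt primary 1 (adjusted p = 0.205). With no filter on dim probes it just missed (adjusted p = 0.0524).

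Rsph9 was at 9.19 on wt primary 1, 8.91 and 8.39 on Wip1-Tg primary, 8.34 and 8.48 on wt secondary and 8.09 on Wip1-Tg secondary. Its passages overlapped, since Wip1-Tg primary 2 lay below wt secondary 2. The difference was -0.67 (SE 0.172, limma adjusted p = 0.0314), and the call held only without Wip1-Tg primary 2, with differences of -0.79 to -0.56 and adjusted p up to 0.182 as single arrays were left out. It also ended with no filter on dim probes (adjusted p = 0.0523) and with genotype left out of the model (adjusted p = 0.108). Iqcg, of the nexin-dynein regulatory complex that links the doublets, was above background on 3 arrays and gave 0.22 (95% interval -0.16 to 0.61). Spag6, the tested central pair protein, was likewise above background on 3 arrays and gave 0.30 (95% interval -0.08 to 0.68). Spag6 was at 5.21 on wt primary 1, 5.29 and 5.02 on Wip1-Tg primary, 5.30 and 5.23 on wt secondary and 5.70 on Wip1-Tg secondary, so that all its values lay close to background.

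The 3 intraflagellar transport genes, which primary cilia also need, did not pass. Ift88 was nearly level, at 6.55 on wt primary 1, 6.56 and 6.56 on Wip1-Tg primary, 6.50 and 6.54 on wt secondary and 6.65 on Wip1-Tg secondary (0.03, 95% interval -0.23 to 0.30). Ift172 lay between 9.24 and 9.68 (-0.15, 95% interval -0.51 to 0.21), and neither passage was set apart. Ift80 was at 6.61 on wt primary 1, 6.51 and 6.06 on Wip1-Tg primary, 6.41 and 6.97 on wt secondary and 6.26 on Wip1-Tg secondary (0.03, 95% interval -0.46 to 0.51). The lower ends of these 3 intervals lie above the differences of Tppp3 and Cfap126.

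Mlf1, a protein first named in leukaemia and listed here among the cilium genes, fell with passage. Mlf1 was at 7.21 on wt primary 1, 6.92 and 7.18 on Wip1-Tg primary, 6.02 and 5.47 on wt secondary and 6.41 on Wip1-Tg secondary, with no overlap. The difference was -1.05 (SE 0.242, limma adjusted p = 0.0219), or 2.07-fold, with -0.44 from its second kept probe. Without wt primary 1 it was -0.64 (adjusted p = 0.166).

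Lrrcc1, a centrosomal protein, rose slightly. It was at 5.59 on wt primary 1, 6.20 and 6.06 on Wip1-Tg primary, 6.05 and 5.90 on wt secondary and 6.83 on Wip1-Tg secondary. The passages overlapped, and the order followed genotype as much as passage. The passage difference was 0.55 (SE 0.134, limma adjusted p = 0.0263), from 1 of its 4 probes. It was called without wt primary 1 or wt secondary 2, and not without each of the other 4 arrays, with 0.39 without Wip1-Tg secondary 1 (adjusted p = 0.177). It ended too after median scaling (0.31, adjusted p = 0.223), with trend and robust variances (adjusted p = 0.0557) and with genotype left out of the model (0.32, adjusted p = 0.415).

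**Figure D2:**
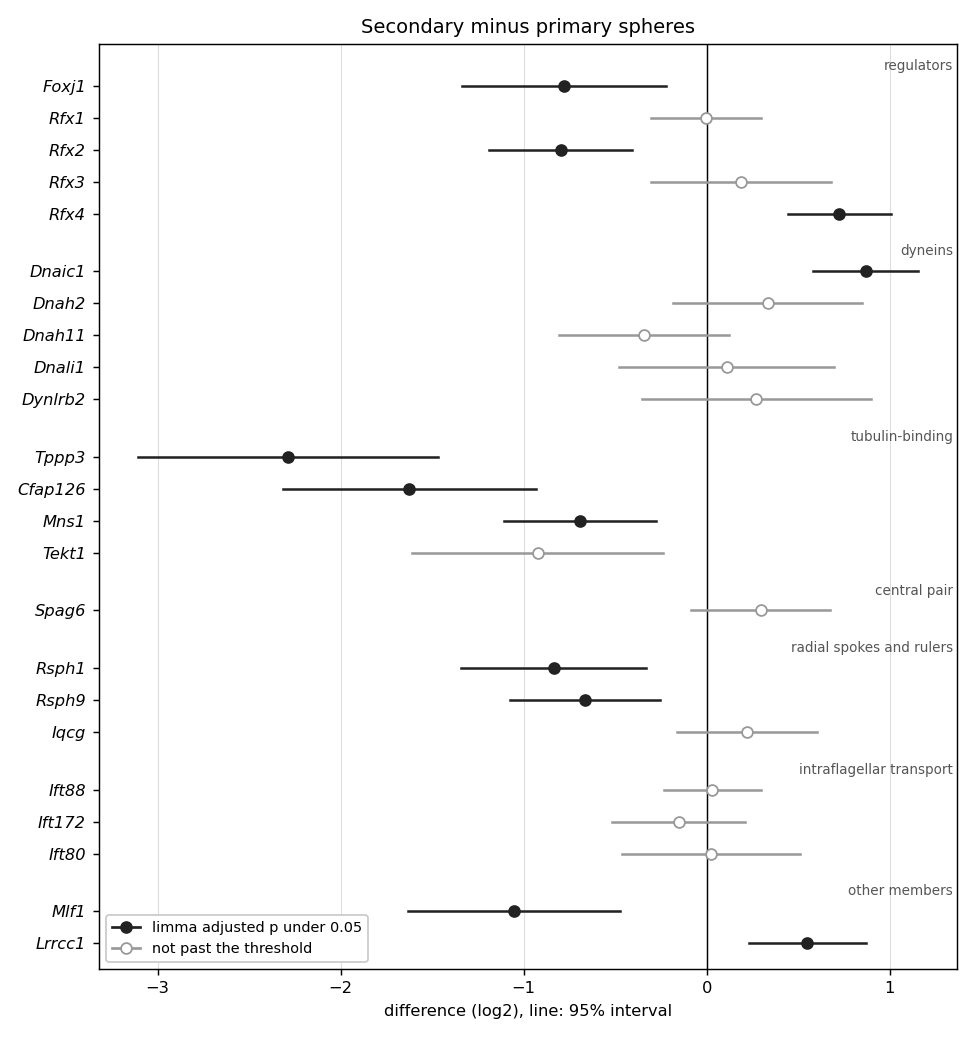
Passage difference of each tested member, secondary minus primary spheres on the log2 scale, from the additive limma fit on 6 arrays, with lines for 95% intervals and filled points for an adjusted p under 0.05. The tubulin-binding genes lie furthest to the left, from -2.29 for Tppp3 to -0.69 for Mns1, and the intraflagellar transport genes lie between -0.15 and 0.03.

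Between genotypes, 0 of the 23 tested members passed with limma, as did 0 of all features (0%). At an unadjusted p under 0.05 there were 6 of 23, against 10.1% of all features. Dnaic1, Dnali1, Tppp3, Tekt1 and Rsph9 were the 5 with negative values (Wip1-Tg minus wt) and Lrrcc1 had a positive one. The median genotype difference of the tested members was 0.07, with 12 positive and 11 negative, beside 0.008 over all features.

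Lrrcc1 had its 3 Wip1-Tg values at 6.06 to 6.83 and its 3 wt values at 5.59 to 6.05, so that the genotypes touched without overlapping. The difference was 0.70 (SE 0.134, unadjusted p = 0.00147, limma adjusted p = 0.434), positive in both passages. Non-overlapping genotypes were seen for 8.41% of all features and for 3 of the 23 members, the others being Dnali1 and Ift88. Dnaic1, whose per-array values are given above, differed by -0.65 (SE 0.12, unadjusted p = 0.00117, limma adjusted p = 0.434). The gap was -0.61 in primary spheres and -0.70 in secondary ones, and its second probe gave -0.44.

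Tppp3 differed by -1.13 between genotypes (SE 0.342, 95% interval -1.95 to -0.31, limma adjusted p = 0.448). In secondary spheres its Wip1-Tg array was not above background, so the mean of the wt arrays was at least 1.57-fold higher there. That bound rests on wt secondary 2 (6.58), since wt secondary 1 (5.35) lay close to background. Dnali1 was at 6.46 on wt primary 1, 5.15 and 5.58 on Wip1-Tg primary, 6.03 and 6.12 on wt secondary and 5.97 on Wip1-Tg secondary. It was not above background on Wip1-Tg primary 1. The fitted gap was -1.10 in primary spheres, with that dim value included, and -0.10 in secondary spheres, with -0.60 over both (SE 0.246, limma adjusted p = 0.494). Tekt1 gave -0.78 (SE 0.287, limma adjusted p = 0.485) and Rsph9 -0.43 (SE 0.172, limma adjusted p = 0.493).

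The wt primary group was a single array, and it carried the highest primary value for 12 of the 23 tested members (52.2%), beside 34.9% of all features. For the 8 members that fell with passage this held in 6. That count follows in part from how the 8 were chosen, since a high value on this array favours a lower call. It was not compared with all features called lower, and nothing is concluded from it. In the list of other motile axoneme genes, the wt primary array carried the highest primary value in 9 of 14. The genotype values within primary spheres and the passage values within wt both rest on that array.

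The interaction asked whether the genotype difference was the same in primary and secondary spheres. No member passed, nor did any feature (0%), and 5 of 23 members had an unadjusted p under 0.05, against 9.38% of all features. These were Foxj1, Rfx3, Dnali1, Dynlrb2 and Rsph1. Foxj1 had the smallest p of the members, with an interaction of -1.06 (SE 0.206, unadjusted p = 0.00324, limma adjusted p = 0.489). Its genotypes were level in primary spheres (0.007), and in secondary spheres wt was at least 1.5-fold higher than the single Wip1-Tg array, on which Foxj1 was not above background.

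Dynlrb2 went the other way. It was at 6.89 on wt primary 1, 6.41 and 6.84 on Wip1-Tg primary, 6.57 and 6.65 on wt secondary and 7.45 on Wip1-Tg secondary, and the last was the highest of all. Its interaction was 1.11 (SE 0.308, unadjusted p = 0.0147, limma adjusted p = 0.489). Rfx3 was at 6.46 on wt primary 1, 6.13 and 6.18 on Wip1-Tg primary, 6.42 and 6.09 on wt secondary and 6.74 on Wip1-Tg secondary. Its interaction was 0.79 (SE 0.275, unadjusted p = 0.0328), as was that of Rsph1 (SE 0.297, unadjusted p = 0.0426). For all 5 genes the secondary side of the comparison rests on the single Wip1-Tg secondary array.

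**Figure D3:**
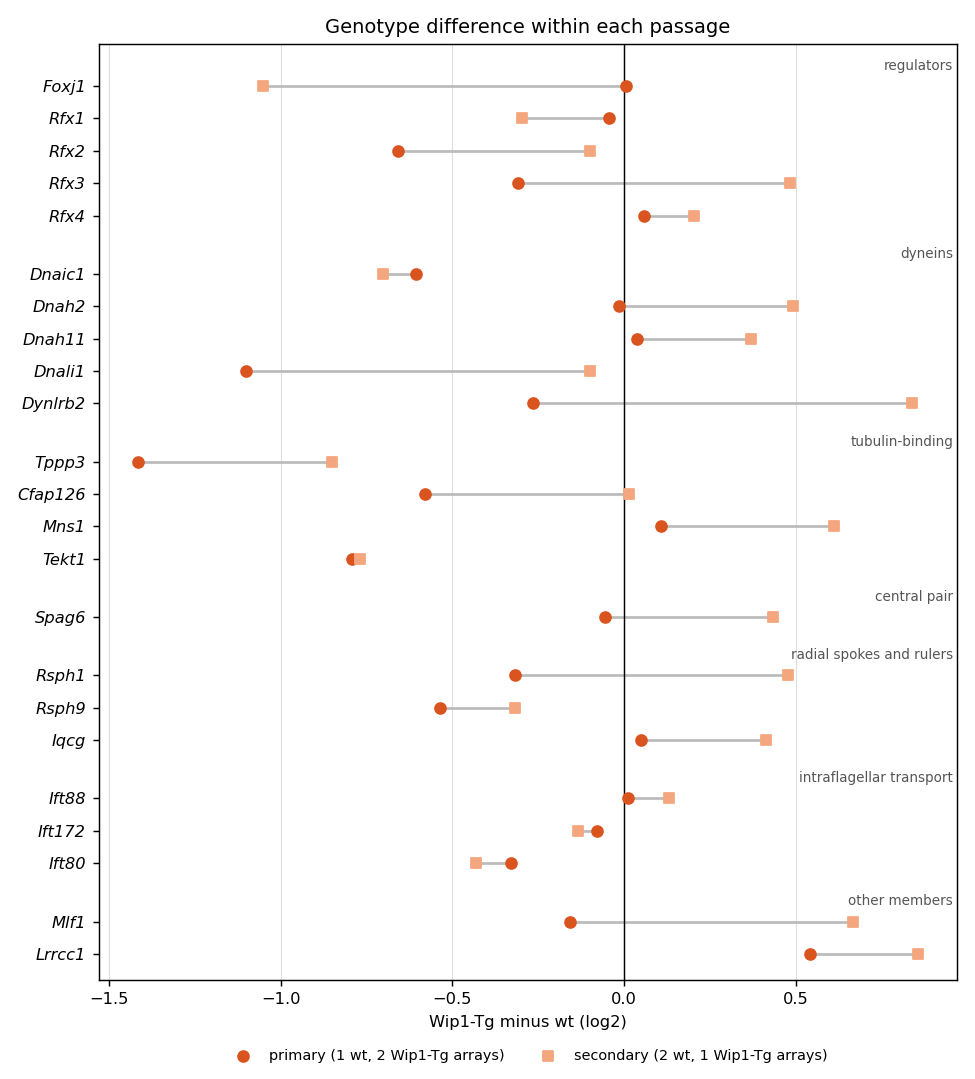
Genotype difference of each tested member within primary spheres (circles) and within secondary spheres (squares), Wip1-Tg minus wt on the log2 scale, with a line joining both values of a gene and 1 array on the smaller side of each comparison. Dnaic1, Tppp3 and Tekt1 lie left of 0 in both passages and Lrrcc1 lies right of 0, while Foxj1, Dynlrb2, Rfx3 and Rsph1 change between the passages. At least 1 array on which the probe was not above background enters the secondary points of Foxj1, Tppp3 and Cfap126, the primary point of Dnali1 and both points of Dnah2, Spag6 and Iqcg.

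Further cilium genes outside the 40 were counted in 6 lists of 171 genes, 150 of them with a named probe. The multiciliation switch list holds genes that drive or regulate the turn of a progenitor into a cell with many centrioles. Of these 12, 4 were tested, and Mcidas, Trp73, Deup1, Cdc20b and Ccdc78 were never above background. Nor was Gmnn, a regulator and not a driver of the switch, with its 1 probe. Ccno, a cyclin-like protein needed to make many centrioles, was the 1 that passed. Ccno was at 6.95 on wt primary 1, 6.34 and 6.24 on Wip1-Tg primary, 5.48 and 5.17 on wt secondary and 4.87 on Wip1-Tg secondary, and the passages lay far apart. It fell by 1.52 on the log2 scale (SE 0.139, limma adjusted p = 0.00106), with -1.62 to -1.42 as single arrays were left out. On the 4 arrays with Xist, Ccno gave -1.37, from 1 Wip1-Tg array of each passage. Of its secondary arrays, 1 was above background.

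Of 14 tested genes for assembling and docking dyneins, 1 was called higher and 5 lower. Spag1, a cytoplasmic assembly factor for dynein arms, rose by 1.02 (SE 0.122, limma adjusted p = 0.00239). Spag1 was at 6.40 on wt primary 1, 5.70 and 5.85 on Wip1-Tg primary, 7.38 and 7.26 on wt secondary and 6.88 on Wip1-Tg secondary, the same order by array group as Dnaic1. Its call held with each array left out. On the 4 arrays with Xist, Spag1 gave 1.04, from 1 Wip1-Tg array of each passage. Ccdc114, a docking protein of the outer arm, was at 7.52 on wt primary 1, 7.04 and 6.24 on Wip1-Tg primary, 5.56 and 6.04 on wt secondary and 5.36 on Wip1-Tg secondary. Ccdc114 fell by 1.51 (SE 0.264, limma adjusted p = 0.00898), a call that ended without wt primary 1 or Wip1-Tg secondary 1 (-1.73 to -1.28 as single arrays were left out). Dynlt1b, a dynein light chain, fell by 1.00 (SE 0.157, limma adjusted p = 0.00608), a call that ended without Wip1-Tg secondary 1.

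Of 14 other motile axoneme genes tested, 3 were called lower and 1 higher. Drc1, of the nexin-dynein regulatory complex, was at 7.63 on wt primary 1, 6.88 and 6.61 on Wip1-Tg primary, 5.60 and 6.34 on wt secondary and 5.54 on Wip1-Tg secondary. Drc1 fell by 1.43 (SE 0.233, limma adjusted p = 0.00712). Cfap45 and Ribc1, both microtubule inner proteins, fell by 1.33 (SE 0.271, limma adjusted p = 0.0148) and by 1.17 (SE 0.312, limma adjusted p = 0.0354). All 3 calls ended without wt primary 1, and that of Ribc1 also without wt secondary 1 or Wip1-Tg secondary 1. The passage differences of the 14 had a median of -0.08.

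The remaining lists hold parts that primary cilia and centrosomes share. Of 31 tested genes of intraflagellar transport and the BBSome, a cargo adaptor, 2 were called higher and 2 lower. Among the lower ones, Ttc26 met the filter of 3 arrays through the primary arrays alone, so its lower call follows in part from the filter. In the transition zone and basal body list 0 of 27 were higher and 6 lower, among them Plk4, the kinase that starts centriole copying, which fell by 1.11 (SE 0.223, limma adjusted p = 0.0144, ended without wt primary 1). Of 13 tubulins, 2 were higher and 1 lower. Tubb6, a beta tubulin, fell by 1.96 (SE 0.114, limma adjusted p = 0.000295), from 12.66 to 12.72 in primary spheres down to 10.66 to 10.82. Tubb4a, a beta tubulin of neural cells and cilia, rose by 1.16 (SE 0.177, limma adjusted p = 0.00562), a call that ended without wt primary 1. For genotype, limma called 0 genes of these 6 lists.

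**Figure D4:**
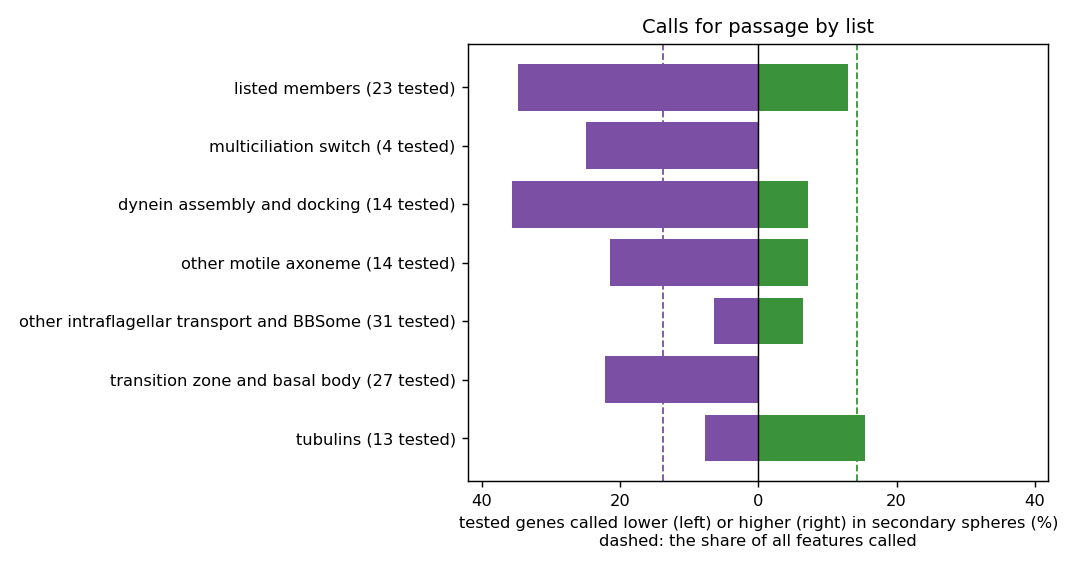
Share of tested genes called lower (bars to the left) and higher (bars to the right) in secondary spheres, in percent, for the listed members and for 6 further cilium lists, with dashed lines at the shares over all features (13.8% lower, 14.3% higher). The members and the dynein assembly and docking list reach furthest to the left, and the tubulins are the list whose right bar passes the line.

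Markers of ependymal cells that are not part of the axoneme did not all move one way with passage. Of 9 listed, 6 were tested, with 2 called higher and 1 lower. S100b, a calcium-binding protein of ependymal cells and astrocytes, was not above background on any primary array and was at 6.10 and 6.09 on wt secondary and 6.92 on Wip1-Tg secondary, at least 2.15-fold higher (limma adjusted p = 0.00194). It met the filter of 3 arrays through the secondary arrays alone, so its higher call follows in part from the filter. Rarres2, which encodes chemerin, fell by 1.94 (SE 0.343, limma adjusted p = 0.00933), a call that ended without wt primary 1 or Wip1-Tg secondary 1. 1110017D15Rik rose by 0.75 (limma adjusted p = 0.0139), a call that ended without wt primary 1. Tmem212 was never above background. The genes that go with the ependymal label were detected in part. Rarres2, 1110017D15Rik, Fam183b and Sntn of this list, and Tekt1, Rsph1 and Rsph9 of the members, were above background on all 6 arrays, and Foxj1 on 5. S100b and Mia reached 3 arrays and Cd24a 2, too few for a test, and Ccdc153 had no named probe. Hydin, Dnah5, Dnah9, Tmem212 and the switch gene Mcidas were above background on none. Members were tested only where detected, so the signal of those named is no separate support for the label.

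Some genes of other cell types differed between passages as well, where 14.3% of all features were called higher and 13.8% lower. The part of these cell types in the results was not tested. Choroid plexus cells, which also bear motile cilia, left 1 tested marker of 10 listed, Otx2 (-1.10, limma adjusted p = 0.0193, a call that ended without wt primary 1 or Wip1-Tg secondary 1), and Ttr, Folr1, Clic6 and Kl were never above background. Of 8 astrocyte genes, 4 were called higher in secondary spheres, among them Gjb6 (4.92) and Slc39a12 (3.90). The 1 called lower was Gfap (-1.38), a call that ended without Wip1-Tg secondary 1. The mean of the normalised values of the 8 was 10.83 to 11.24 in primary and 12.24 to 12.82 in secondary spheres. Of 5 tested neuroblast genes, Dcx was called higher and Dlx1 and Stmn2 lower, with means of 6.43 to 6.79 in primary and 6.19 to 6.42 in secondary spheres. Of 8 genes of the oligodendrocyte lineage, Pdgfra (-0.95) and Sox10 (-1.03) were called lower, with means of 9.23 to 10.00 in primary and 9.30 to 9.95 in secondary spheres. The calls of Dlx1, Stmn2, Pdgfra and Sox10 each ended with at least 1 array left out, and Stmn2 was above background on 3 arrays only. Of 8 genes of dividing cells, 5 were called lower and 0 higher, and their mean was 9.21 to 9.81 in primary and 8.0 to 9.11 in secondary spheres. All 8 had positive genotype differences (median 0.66), 7 of them at an unadjusted p under 0.05, and 0 passed with limma. Of 9 neural stem and progenitor markers, the type that the culture is labelled for, 6 were tested, with a mean of 10.51 to 11.03 on all arrays, and Hes5 alone of them was called (1.62, limma adjusted p = 0.00478). The microglial markers Cx3cr1, Ptprc, Tyrobp, Itgam and C1qa and the endothelial markers Pecam1, Cdh5 and Cldn5 were never above background. Other markers of the microglial list were, with P2ry12 on 5 arrays, Csf1r on 4 and Aif1 on 3, and 0 of these were called for passage. In the list of endothelium, mural cells and fibroblasts, Acta2 was above background on 6 arrays, Kdr and Rgs5 on 2 and Dcn on 1.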

How the data were processed

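RNA of 6 neurosphere samples was measured on 6 arrays of 1 beadchip, so no slide block could be fitted. Per the file headers, each array has 2 columns in the deposited non-normalized table, its probe intensity and the detection p-value, over 45281 probes. The values show these intensities to be linear and without background subtraction. A second deposited table has intensities after quantile normalization by the authors, judged from its near-identical sorted columns, and served as an alternative. The sources used here do not name the scanner software.

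Background correction, quantile normalization and log2 were done with neqc of limma 3.58.1 (R 4.3.3, offset 16), so log2 values here were computed from the deposited intensities and not by the authors. Probes with a detection p-value under 0.05 on at least 3 arrays were kept (18274), and a gene took its kept probe with the highest mean. Names came from the platform annotation, with 34885 probes having 1 symbol, 18 several and 10378 none. The fit covered 12754 features (10166 named genes). Genotype and passage were fitted as additive terms (3 residual degrees of freedom) and with their interaction (2), with eBayes and Benjamini-Hochberg adjustment over all features. Signs are Wip1-Tg minus wt and secondary minus primary. For a group of 1 array, the spread was taken from the other groups. The code was tested on simulated data.

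The members and all lists were chosen with earlier results of these data known. Every member may be named. Values per array are given for members past the threshold and, in each role, for those with the smallest genotype or interaction p. From a further list, the 3 smallest passage p and 2 smallest genotype p may be named. Genes beyond these are named for their detection alone, or were chosen after their values were seen. A fold marked "at least" sets the brighter group's mean against the higher, per array, of the dim value and the lowest value above background. P-values measure the spread between these samples, which may be technical, and the number of arrays limits the precision. The alternatives were the deposited normalized values, median scaling, an offset of 50, 3 other filters on dim probes, the mean of probes, trend and robust variances, single arrays left out, the arrays with Xist, and models without or within the other factor.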

Additional observations from a re-analysis of the deposited data

How the results depend on the processing

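No paired analysis was possible because the groups that share replicate numbers, Wip1-Tg primary and wt secondary, differ in both factors and are not compared with each other. For genotype, 0 members were called under any alternative, and limma with trend and robust variances called 1 feature lower. For the interaction, 0 members were called under any alternative that could be fitted. It called 3 features higher and 3 lower from the deposited normalized values, 5 and 4 after median scaling, 1 higher with an offset of 50, 1 higher with no filter, and 2 and 7 with trend and robust variances. For passage, median scaling called 625 features higher and 3230 lower, with 1 member higher and 9 lower, since it moved the median passage difference of all features to -0.244 and the median genotype difference to -0.19. With no filter on dim probes 5 members were lower. The arrays with Xist called 493 features higher and 607 lower, with 0 members higher and 1 lower. Within wt these were 606 and 757 features, with 1 and 5 members, and within Wip1-Tg 886 and 969 features, with 3 and 1 members. As single arrays were left out, 606 to 1488 features were higher and 757 to 1546 lower, with 1 to 3 members higher and 1 to 7 lower. Over all members and alternatives, 28 genotype values and 24 passage values changed sign, with fits that are the same counted separately.

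The sign changes were these. Under median scaling the genotype differences became -0.124 for Rfx3, -0.101 for Rfx4, -0.000809 for Dnah11, -0.13 for Rsph1, -0.129 for Ift88 and -0.00111 for Mlf1. The passage differences became -0.135 for Rfx3, -0.179 for Dnali1, -0.0737 for Dynlrb2, -0.304 for Ift88 and -0.307 for Ift80. With the mean of probes, Ift88 gave -0.00802 for genotype and -0.0164 for passage. On the arrays with Xist, Cfap126 gave 0.013 for genotype and Ift172 gave 0.0421 for passage. With the other factor left out of the model, genotype gave -0.111 for Rfx4 and 0.258 for Cfap126, and passage gave 0.0546 for Rfx1. Within primary spheres, genotype gave 0.00653 for Foxj1, -0.308 for Rfx3, -0.0134 for Dnah2, -0.267 for Dynlrb2, -0.0542 for Spag6, -0.317 for Rsph1 and -0.158 for Mlf1, and within secondary spheres 0.013 for Cfap126. Within wt, passage gave 0.124 for Rfx1, -0.209 for Rfx3, -0.391 for Dnali1, -0.281 for Dynlrb2 and -0.028 for Ift88, and within Wip1-Tg -0.0256 for Ift80. The cause was not tested.

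As single arrays were left out, the members whose sign changed had genotype differences of -0.58 to 0.013 for Cfap126, -0.308 to 0.485 for Rfx3, -0.317 to 0.477 for Rsph1, -1.05 to 0.00653 for Foxj1, -0.0134 to 0.491 for Dnah2, -0.267 to 0.839 for Dynlrb2, -0.0542 to 0.434 for Spag6 and -0.158 to 0.668 for Mlf1. Their passage differences ranged over -0.103 to 0.138 for Ift80, -0.13 to 0.124 for Rfx1, -0.391 to 0.609 for Dnali1, -0.209 to 0.584 for Rfx3, -0.281 to 0.825 for Dynlrb2 and -0.028 to 0.0895 for Ift88.

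Probes near background limit what can be said of Foxj1, Tppp3, Cfap126, Dnah2, Dnali1, Spag6 and Iqcg, and the members that were never above background have no measured difference.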

Other observations

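Tppp3, Cfap126, Drc1, Cfap45 and Ccdc114 each had their highest value on wt primary 1, between 6.96 and 8.54 on the log2 scale, and all 5 fell with passage (limma adjusted p 0.00531 to 0.0148). Drc1 and Ccdc114 also had unadjusted genotype p-values of 0.0275 and 0.0422, with differences of -0.66 and -0.66 (limma adjusted p = 0.484 and 0.49). These genes were picked after their values were seen.

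Spag1 and Dnaic1 rose with passage and were lower in Wip1-Tg than in wt on every array of the same passage. The genotype difference of Spag1 was -0.53 (limma adjusted p = 0.434).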
